A study of Homo sapiens with 3 samples.

Results

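The BBSome is a complex of 8 different subunits that rides on the trains of intraflagellar transport in the primary cilium, the single sensory antenna of most vertebrate cells. It works like a membrane coat that picks up receptors and carries them across the ciliary boundary, and the small GTPase ARL6, in its GTP-bound form, brings it to the membrane by binding BBS1. Mutations in its genes cause Bardet-Biedl syndrome, a ciliary disease of the retina, kidney, limbs and body weight. The 9 genes described here are the 8 subunit genes BBS1, BBS2, BBS4, BBS5, BBS7, BBS9, TTC8 and BBIP1 together with ARL6. They were chosen by name, and each matched 1 row of a table of 58735 genes.

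The libraries came from RPE-1, a telomerase-immortalised human cell line of the retinal pigment epithelium, in a derivative whose centrin 2 (Cetn2) carries GFP and whose PLK4, the kinase that starts centriole duplication, is driven by rtTA and doxycycline. All 3 libraries belong to 1 group, given scramble siRNA by lipid transfection and no PLK4 induction, so they describe a control state and allow no comparison between conditions. The study concerns the RNA-binding protein Unkempt in centriole overduplication. The labels do not say how many of the cells carried a cilium, nor that the libraries came from separate cultures, so the p-values given here speak of 3 samples whose spread could be technical.

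Polyadenylated RNA was sequenced to totals of 46625774 to 60040029 counts per library. No pair of libraries agreed within sampling noise, with a mean chi-square statistic per gene of 99.6 for libraries 1 and 2, 64.7 for libraries 1 and 3 and 10.1 for libraries 2 and 3, so library 1 stood apart. Of the labelled cell type's markers, OTX2, MITF, BEST1 and PMEL were detected, while RPE65, RLBP1, TYR and TYRP1 were not. The keratin genes KRT8 and KRT18 and the mesenchymal genes VIM and FN1 were detected. Of 7 markers of other cells, PTPRC (1.53 to 2.95 CPM) and PECAM1 (1.01 to 1.53 CPM) lay just above detection, and HBB, ALB, SYP, MYOD1 and FOXJ1 lay below it. CPM gives a gene's counts relative to the scaled library total, and a gene counted as detected with at least 1 CPM in each of the 3 libraries.

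The 9 genes lie on 9 different chromosomes, and several share a short promoter sequence. Cilium genes are known targets of RFX transcription factors, which bind a motif called the X-box, and its hexamer GTTGCC, which reads GGCAAC on the other strand, was searched on both strands of RefSeq promoter windows (GRCh38.p14) that run from 250 bases before to 50 bases after a start. Windows were found for 8 of the 9 genes, BBS9 being the gene without one, and 5 of these 8 held the hexamer: ARL6, BBIP1, BBS1, BBS5 and TTC8. BBS2, BBS4 and BBS7 had no match in their windows. Over all genes with a window 14.6% held it, and 12.2% of all 35116 windows did, against 6 of the 11 windows of the BBSome genes and ARL6. The 7 matches are shown with 8 bases on either side, in the direction of transcription. They show the hexamer found in ARL6, BBIP1, BBS1, BBS5 and TTC8. The hexamer is in capitals.
ARL6: gtgcgatgGGCAACtggggaac
ARL6: ttgcagtcGTTGCCacaacgct
ARL6: aagctcctGTTGCCaagggaac
BBIP1: ttacccggGGCAACagctgagc
BBS1: cggggccgGTTGCCaggacgac
BBS5: ggcggcccGTTGCCttggagcc
TTC8: cgtcgcggGTTGCCgggcagag

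The ARL6 matches lie at chr3:97764299-97764320, chr3:97764359-97764380 and chr3:97764726-97764747 on the plus strand, the first 2 in the window of 1 start and the last in that of a second start. The BBIP1 match is at chr10:110919142-110919163 on the minus strand. BBS1 is matched at chr11:66510628-66510649, BBS5 at chr2:169479472-169479493 and TTC8 at chr14:88824609-88824630, each on the plus strand. Counted from the annotated start as position 1, the hexamer begins at 26 in BBIP1 and at 2 in BBS1. It begins 14 bases before the start in BBS5 and 34 before it in TTC8, and 214, 154 and 24 before it in ARL6. The same hexamer was found in 1 of 5 genes of the IFT-A complex with a window, 6 of 12 of the IFT-B complex and 7 of 16 of the ciliary transition zone. A match describes these letters, not a whole X-box, and says nothing of binding. Of the RFX genes and FOXJ1, the regulator of motile cilia, 5 of 8 were detected. RFX5 was the highest at 19.5 ± 0.932 RPKM (SD, n = 3) and RFX3 the lowest detected at 0.571 ± 0.00276 RPKM, RPKM being CPM per kb of annotated exon. RFX4 and RFX6 had 0 counts in every library and FOXJ1 had 5, 2 and 0.

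Messenger RNA was detected for 8 of the 9 genes, with BBS1 the exception, and the levels of all 9 spanned a 35.6-fold range per unit of exon length. The span was 12.6-fold when only exon bases that no other gene covers were taken as length. Of all protein-coding genes in the table, 57.7% were detected. The 5 genes BBS7, BBS2, TTC8, BBS4 and BBIP1 stood between 3.19 and 6.65 RPKM in every library, and the 4 genes BBS9, ARL6, BBS5 and BBS1 between 0.139 and 1.21 RPKM. The first 5 held 92.2% of the summed RPKM of the 8 subunits. The median over the 9 genes was 3.40 RPKM, against 6.09 RPKM over detected protein-coding genes and 1.15 RPKM over all protein-coding genes.

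**Figure D1:**
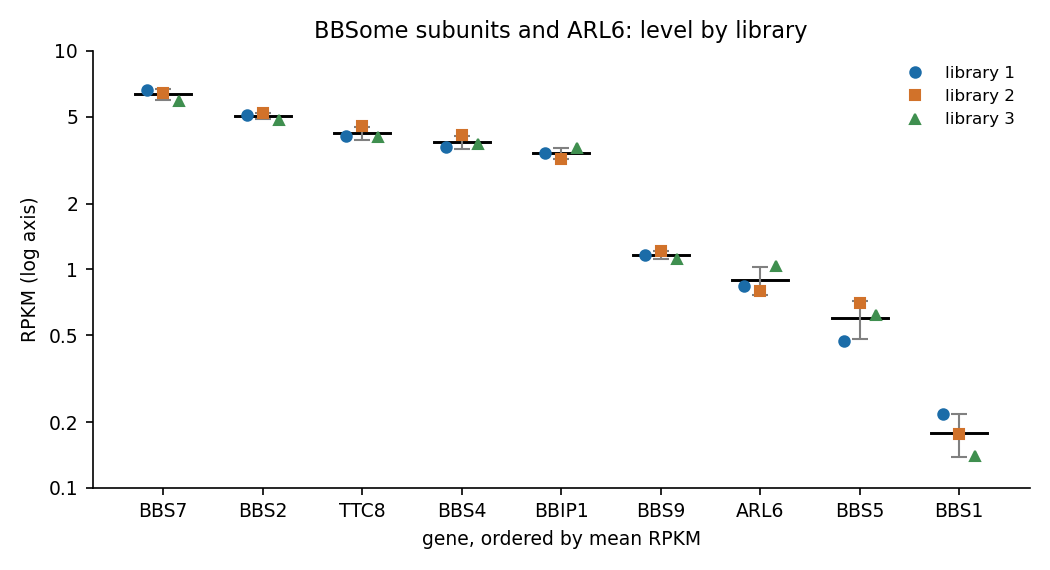
RPKM of each gene (log axis) in libraries 1, 2 and 3, with the mean as a black line and the SD as a grey bar (n = 3). BBIP1, at a mean of 3.40 RPKM, and BBS9, at 1.16, are the neighbours between the 5 higher and the 4 lower genes.

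BBS2, BBS7 and BBS9 carry beta-propeller domains and form the core on which the complex is built, and BBS1 is the propeller subunit that meets ARL6. BBS7 (ENSG00000138686, chromosome 4, 121824440 to 121870497, minus strand) had 1558, 1887 and 1337 counts in libraries 1, 2 and 3, or 6.65, 6.43 and 5.92 RPKM (mean 6.33 ± 0.375 SD, n = 3). It was highest in library 1 and lowest in library 3. BBS2 (ENSG00000125124, chromosome 16, 56466836 to 56520283, minus strand) had 2046, 2635 and 1887 counts, or 5.06, 5.20 and 4.84 RPKM (mean 5.03 ± 0.184). BBS9 (ENSG00000122507, chromosome 7, 33129244 to 33606068, plus strand), the gene with the longest span of the 9, had 348, 455 and 322 counts, or 1.16, 1.21 and 1.11 RPKM (mean 1.16 ± 0.0490). The 3 libraries of BBS9 were close together and did not overlap those of BBS2 or BBS7. Within each library BBS2 exceeded BBS9 by 4.34-fold (log2 ratio 2.12 ± 0.01 SD) and BBS7 exceeded BBS9 by 5.45-fold (log2 ratio 2.45 ± 0.06), in 3 of 3 libraries for both. With the longest coding transcript as length BBS2 exceeded BBS9 by 7.93-fold.

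BBS1 (ENSG00000174483, chromosome 11, 66510606 to 66533627, plus strand) had the fewest reads of the 9 genes, with 65, 66 and 40 counts. These amount to 1.34, 1.09 and 0.855 CPM, or 0.178 ± 0.0394 RPKM (n = 3). Libraries 1 and 2 lay above the detection limit and library 3 below it. The exact binomial interval at 95% confidence ran from 0.611 to 1.16 CPM in library 3 and from 0.840 to 1.38 CPM in library 2. Both include the limit. In library 1 it ran from 1.03 to 1.71 CPM, just above the limit, so the gene lay near the limit. Such intervals allow for counting error alone, and do not allow for several reads coming from 1 molecule. Without library 3 all 9 genes counted as detected. Per unit of length BBS1 stood 6.57-fold below BBS9 (log2 ratio -2.72 ± 0.29) and 5.03-fold below ARL6 (log2 ratio -2.33 ± 0.49), in 3 of 3 libraries for both. The folds were 2.33 and 1.85 with only unshared exon bases as length, and that to ARL6 was 3.03 with the longest coding transcript.

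The values of BBS1 and BBS5 come from genes whose exons another gene covers. Of the 6145 annotated exon bases of BBS1, 53.9% are also exons of AP002748.4, a protein-coding gene on the same strand that starts 1527 bases away and ends within 14 bases of BBS1. The rest of the 3547 exon bases of AP002748.4 lie in exons of another gene on the same strand. It was listed at 0 counts in each library, which sets no limit on its level, because it has no exon base of its own. A further gene, ZDHHC24 on the opposite strand, covers 759 bases and had 14.4, 17.7 and 17.2 CPM. BBS5 shares 998 of its 4556 exon bases (21.9%) with AC093899.2 on the same strand, which was also listed at 0 counts in each library and has no exon base of its own. Over protein-coding genes 17.2% share exon bases with a gene on the same strand. How reads on bases of 2 genes were counted is not given in the sources used here. As AP002748.4 and AC093899.2 had 0 counts, no read was counted both for BBS1 or BBS5 and for its same-strand neighbour. The part of this sharing in the low values was not tested. When only bases that no other gene covers were taken as length, BBS1 stood at 0.501 ± 0.111 RPKM and BBS5 at 0.764 ± 0.151, against 0.924 ± 0.133 for ARL6. BBS1 lay below ARL6 in every library, whereas the ranges of BBS5 and ARL6 then overlapped. BBS1 lay below BBS5 in libraries 2 and 3 but slightly above it in library 1.

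**Figure D2:**
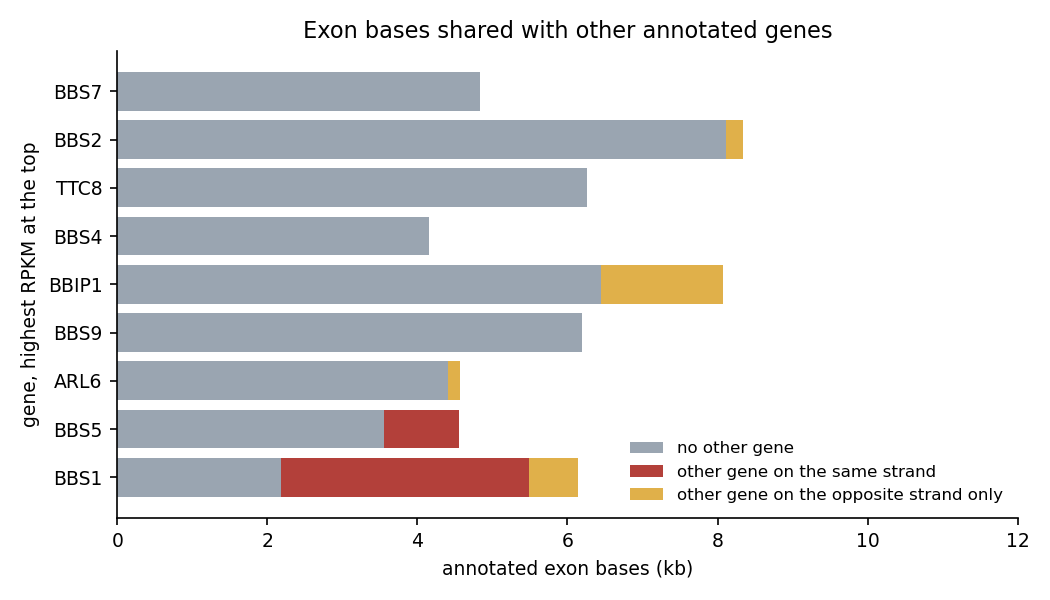
Annotated exon bases of each gene in kb, divided into bases that no other gene covers, bases shared with a gene on the same strand and bases shared with a gene on the opposite strand alone. BBS1 and BBS5, the genes at the bottom of the order by RPKM, are the 2 with same-strand sharing, at 53.9% and 21.9% of their bases.

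BBS4 and TTC8 are built of tetratricopeptide repeats, and BBIP1, the smallest subunit, is held by both. TTC8 (ENSG00000165533, chromosome 14, 88824153 to 88881078, plus strand) had 1233, 1723 and 1174 counts, or 4.06, 4.53 and 4.01 RPKM (mean 4.20 ± 0.288, n = 3). BBS4 (ENSG00000140463, chromosome 15, 72686179 to 72738476, plus strand) had 728, 1039 and 727 counts, or 3.61, 4.12 and 3.75 RPKM (mean 3.83 ± 0.263). Both were highest in library 2, and their ranges overlapped, although TTC8 was higher within each library (BBS4 to TTC8 log2 ratio -0.13 ± 0.03). BBIP1 (ENSG00000214413, chromosome 10, 110898730 to 110919274, minus strand) had 1336, 1565 and 1361 counts, or 3.41, 3.19 and 3.60 RPKM (mean 3.40 ± 0.206). Unlike those of TTC8 and BBS4, its lowest value was in library 2. The end of BBIP1 overlaps that of PDCD4 on the opposite strand by 1277 bases, and PDCD4 had 102, 70.6 and 78.8 CPM. Without a stated strand setting, reads of BBIP1 and PDCD4 in that stretch cannot be told apart.

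BBS5, which binds phosphoinositide lipids through pleckstrin-homology domains, and ARL6 were among the lower genes. BBS5 (ENSG00000163093, chromosome 2, 169479178 to 169506655, plus strand) had 104, 195 and 131 counts, or 0.470, 0.705 and 0.615 RPKM (mean 0.596 ± 0.118, n = 3), with library 1 the lowest. BBS5 stood 1.96-fold below BBS9 (log2 ratio -0.97 ± 0.28). ARL6 (ENSG00000113966, chromosome 3, 97764521 to 97801242, plus strand) had 186, 222 and 222 counts, or 0.838, 0.799 and 1.04 RPKM (mean 0.891 ± 0.128), with library 3 the highest. ARL3, a ciliary GTPase of the same family that releases lipid-modified cargo inside the cilium, stood higher, at 19.3 ± 0.438 RPKM (n = 3). It exceeded ARL6 by 21.7-fold in 3 of 3 libraries (ARL6 to ARL3 log2 ratio -4.44 ± 0.17).

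In the order of mean RPKM (BBS7, BBS2, TTC8, BBS4, BBIP1, BBS9, ARL6, BBS5, BBS1), the ranges over the libraries did not overlap for 7 of the 8 neighbouring pairs, and TTC8 and BBS4 were the pair that did. BBS4 and BBIP1 were barely apart, with a lowest BBS4 value of 3.61 RPKM and a highest BBIP1 value of 3.60. The widest steps were those from BBIP1 to BBS9 (2.93-fold) and from BBS5 to BBS1 (3.36-fold). The step from BBS5 to BBS1 was 1.53-fold with unshared bases as length, and that from BBIP1 to BBS9 was 7.26-fold with the longest coding transcript. With the exon union as length, each neighbouring pair kept its direction in 3 of 3 libraries. The two-sided exact sign-flip test gave p = 0.25, the smallest that 3 libraries allow, and 0.25 after adjustment over the 8 pairs. The neighbours were taken from the order of these same values, so the test cannot support that order. Among the 13 pairs chosen by name, the same exact test gave adjusted p = 0.271 for 12 and 0.50 for LZTFL1 and IFT27. The order within the higher 5 genes depended on the length used, because BBS2 and BBIP1 have long annotated exon unions (8337 and 8075 bases) and shorter coding transcripts (2963 and 2119 bases). With the longest coding transcript as length, BBS2 led at 14.2 ± 0.516 RPKM, followed by BBIP1 at 13.0 ± 0.786 and BBS7 at 8.15 ± 0.482. By mean level BBS9, ARL6, BBS5 and BBS1 remained the 4 lowest, in that order, with the union of exons, the coding transcript, the unshared bases and no length at all. Within library 1, however, BBS1 exceeded BBS5 with unshared bases, at 2.35% against 2.30% of the summed subunit RPKM. In libraries 2 and 3 BBS1 lay below BBS5, at 1.84% against 3.34% and 1.54% against 3.09%.

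As parts of one complex whose subunits are present in equal copies, the 8 genes had unequal shares of transcript. BBS7 made up 25.6 ± 1.22% of the summed RPKM of the subunits, BBS2 20.3 ± 0.175%, TTC8 17.0 ± 0.660%, BBS4 15.5 ± 0.734% and BBIP1 13.8 ± 1.27% (n = 3). BBS9 made up 4.69 ± 0.0485%, BBS5 2.41 ± 0.443% and BBS1 0.719 ± 0.154%. The shares of BBS4 (14.7 to 16.1%) and BBIP1 (12.5 to 15.0%) overlapped over the libraries. With the longest coding transcript as length the largest shares were those of BBS2 (28.6%) and BBIP1 (26.2%), followed by BBS7 (16.5%), BBS4 (12.9%) and TTC8 (10.1%), and that of BBS5 was 1.58%. With unshared bases BBS1 made up 1.91%. The 5 higher genes together held 90.8 to 94.2% with each of these lengths. The summed level of all 9 genes was 157, 161 and 154 CPM in libraries 1, 2 and 3.

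The spread between libraries was small for the abundant genes and wider for ARL6, BBS5 and BBS1, which had the fewest reads. The ratio of the highest to the lowest CPM was 1.08 for BBS2, 1.09 for BBS9, 1.12 for BBS7, 1.13 for TTC8 and BBIP1, 1.14 for BBS4, 1.30 for ARL6, 1.50 for BBS5 and 1.57 for BBS1. Its median was 1.13 over the 9 genes and 1.25 over all tested genes. A chi-square test of each gene's 3 counts against the scaled library sizes, with Benjamini-Hochberg adjustment over 16293 genes, called 6 of the 9 genes, and it called 68.6% of all tested genes. TTC8 (adjusted p = 0.00209), BBS5 (0.00651), BBIP1 (0.00767), BBS7 (0.0103), ARL6 (0.0223) and BBS4 (0.0247) passed the threshold of 0.05. BBS2 (0.0761), BBS1 (0.105) and BBS9 (0.550) did not.

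The calls changed with the libraries used. Without library 1 the test called 3 of the 9 (TTC8, BBIP1 and ARL6; 28.1% of all tested genes), without library 2 it called BBS1 and BBS7 (56.8%), and without library 3 it called BBS4, BBS5 and TTC8 (60.7%). Once a coefficient of variation of 0.05 was allowed beyond counting error, the chi-square test called 0 of the 9, with 1 at an unadjusted p under 0.05, and 32.7% of all tested genes. With edgeR's common dispersion it called 0 of the 9, with 0 at an unadjusted p under 0.05, and 4.32% of all tested genes. This allowance was estimated from these same 3 libraries, so it already holds the spread that the test measures.

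Library 1, which stood apart over all genes, was the library farthest from the mean for BBS5 alone among the 9, whereas it was the farthest for 58.1% of all tested genes. Library 2 was the farthest for 4 of the 9 and library 3 for the other 4. In library 3, 5 of the 9 had their lowest CPM, against 25.4% of all tested genes. The median absolute log2 difference between libraries 1 and 2 was 0.10 over the 9 genes and 0.25 over all tested genes, while between libraries 2 and 3 it was 0.18 over the 9 and 0.12 over all. These shares and medians are descriptions without a test. They mix genes of unlike count.

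**Figure D3:**
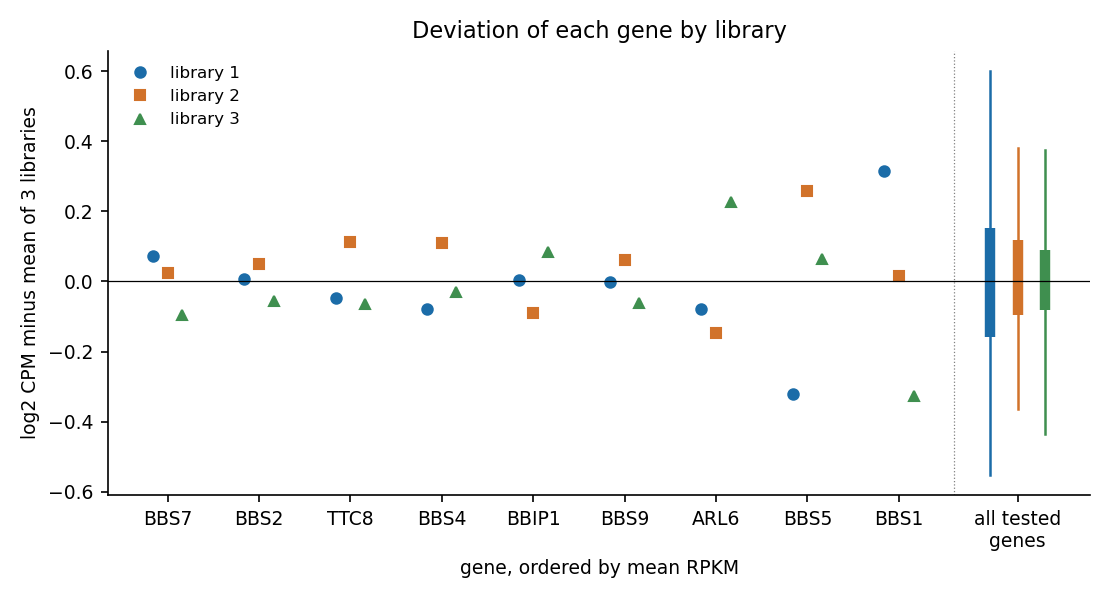
Deviation of each gene in each library from its mean over the 3 libraries, in log2(CPM + pseudocount), with all tested genes at the right (thick bars from the 25th to the 75th percentile, thin lines from the 5th to the 95th). BBS1 (0.31 in library 1, -0.33 in library 3), BBS5 (-0.32 in library 1) and ARL6 (0.23 in library 3), the genes with the fewest counts, lie farthest from 0.

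The chaperonin-like genes that assemble the core of the complex together with CCT subunits were detected at levels within the range of the BBSome genes. BBS10 stood at 5.32 ± 0.486 RPKM, BBS12 at 2.05 ± 0.332 and MKKS at 1.73 ± 0.254 (n = 3), and 3 of 3 passed the test of spread, which called 68.6% of all tested genes. BBS10 exceeded BBS12 by 2.61-fold and MKKS by 3.09-fold, in 3 of 3 libraries for both. Without length the MKKS to BBS10 log2 ratio was -0.67, against -1.63. The 6 CCT subunits of the assembly complex, which also belong to the general chaperonin of the cytosol, ranged from 46.1 ± 2.95 RPKM for CCT5 to 81.8 ± 2.50 for CCT8, and 6 of 6 passed the test of spread, against 68.6% of all tested genes. That test allows for counting error alone, and it called 4.32% of all tested genes with the common dispersion.

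All 15 genes that regulate BBSome traffic were detected. Their median was 5.65 RPKM, and they ranged from RAB3IP, the exchange factor of RAB8, at 0.968 ± 0.0490 to RAB11A, a GTPase of recycling endosomes, at 23.7 ± 0.247 RPKM. Of these, 7 passed the test of spread (46.7%), against 68.6% of all tested genes. LZTFL1, which restrains entry of the BBSome into the cilium, and IFT27, which helps it leave, were at nearly the same level, 1.98 ± 0.0919 and 2.08 ± 0.103 RPKM. Their log2 ratio of -0.07 ± 0.13 was positive in 1 library and negative in 2, and it became -2.19 with the longest coding transcript as length. Of 9 cargo receptors, 5 were detected, from PTCH1, the receptor of Hedgehog ligands, at 0.242 ± 0.0364 RPKM to PKD1, the polycystin gene, at 5.40 ± 1.38. The G protein-coupled receptor genes SSTR3, MCHR1, NPY2R and DRD1 had 0 counts in every library. SMO, the transducer of Hedgehog signals, had 8.90, 14.4 and 14.8 CPM, lowest in library 1.

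Among other multi-subunit parts of the cilium, 6 of 6 genes of IFT-A, 17 of 17 of IFT-B and 19 of 19 of the transition zone were detected. IFT-A, the complex needed for transport back to the cell body, had a median of 2.72 RPKM, IFT-B one of 3.70 and the transition zone one of 3.73, against 3.40 for the BBSome genes and ARL6. With the longest coding transcript as length these medians were 5.41, 8.33, 5.35 and 4.99 RPKM. From the lowest to the highest gene, IFT-A spanned 1.46-fold (IFT140 at 2.59 ± 0.182 to WDR19 at 3.79 ± 0.174 RPKM). IFT-B spanned 12.7-fold (TTC30A at 0.973 ± 0.150 to IFT57 at 12.4 ± 0.171). The highest gene of the transition zone was TCTN3 at 18.7 ± 2.92 RPKM. The 35.6-fold span of the BBSome genes and ARL6 narrowed to 10.6-fold without BBS1. With the longest coding transcript as length the spans were 4.46-fold for IFT-A, 38.6-fold for IFT-B and 44.3-fold for the BBSome genes and ARL6, or 18.1-fold without BBS1. A span grows with the number of genes in a list, and these differences were not tested. The test of spread called 3 of 6 genes of IFT-A, 11 of 17 of IFT-B (64.7%) and 13 of 19 of the transition zone (68.4%), the last near the 68.6% called over all tested genes.

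**Figure D4:**
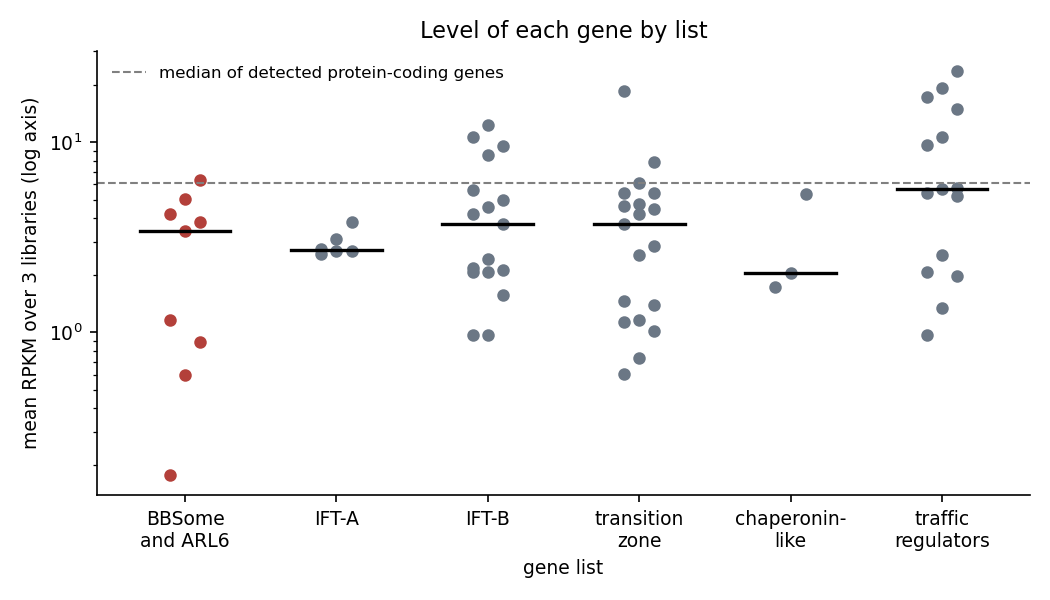
Mean RPKM of each gene over 3 libraries (log axis) by list, with the list's median as a black line and the median of detected protein-coding genes, 6.09 RPKM, as a dashed line. Per exon union, IFT-A genes lie within 1.46-fold of each other, and the BBSome genes and ARL6 (red) divide into 5 higher and 4 lower genes.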

How the data were processed

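The authors deposited raw whole-number counts of reads for each gene. Build hg38 is named in the submitters' processing notes together with featureCounts 1.6.2, STAR 2.5.2a and cutadapt 1.16, with no role or setting. Which annotation and strand setting were used, and how reads on overlapping genes were handled, is not given in the sources used here. A further 6 count columns matched no sample label and were left out. All 58735 identifiers matched GENCODE release 29, which gave positions, exon unions and coding transcripts.

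Library totals (49279692, 60040029 and 46625774 counts) were scaled by TMM with edgeR 4.0.16 in R 4.3.3 to give CPM. RPKM is CPM per kb of the union of a gene's exons. With 1 group there was no test between groups. The chi-square test (2 degrees of freedom) covered genes whose mean count reached 10. It was tried on simulated counts with counting error and set changes alone, without the further spread seen between these libraries. Ratios were taken within libraries with a pseudocount of 0.5 count. DESeq2 1.42.0 gave alternative size factors.

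The 9 genes, the gene lists and the pairs were chosen with earlier results of these data known. Named genes are the 9, the other genes of the pairs, genes covering their exons, and of each list the highest, the lowest detected and those below detection. SMO was named after its values were seen. Some results that this rule covers are not reported here. The alternatives tried were other detection limits, scalings, count filters, noise terms, lengths and pseudocounts, and each library left out.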

Additional observations from a re-analysis of the deposited data

How the results depend on the processing

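Detection of the 9 genes gave 8 or 9 under 7 alternatives. With an extra coefficient of variation of 0.05 the chi-square test called 0 of the 9 (1 at an unadjusted p under 0.05) and 5322 genes in all. With edgeR's common dispersion it called 0 (0 at an unadjusted p under 0.05) and 704 in all, 4.32% of those tested. That dispersion was estimated from these same libraries. Leaving out 1 library gave 2 to 3 of the 9 and 4581 to 10016 genes in all. The median level of 3.40 became 4.99 RPKM with the longest coding transcript as length, 3.83 with unshared bases, 3.61 over detected genes alone and 15.9 CPM without length. Non-overlapping neighbours numbered 4 with unshared bases, 6 with coding transcripts, 6 without length and 7 to 8 when 1 library was left out. These alternatives for the order, and those for the spans, steps and shares, were chosen after seeing the data. Of 91 log2 ratios recomputed for pairs, 6 changed sign: BBS2 to BBS7 (0.80 with coding transcripts, 0.46 without length), BBS4 to TTC8 (0.35 with coding transcripts) and BBS4 to BBIP1 (-1.02 with coding transcripts, -0.79 without length, -0.15 with unshared bases). These settings differ from the main one in length alone. No paired analysis was possible because the labels give 1 group. Few counts limit BBS1, whose 95% interval includes the detection limit in 2 of 3 libraries.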

Other observations

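The other genes of Bardet-Biedl syndrome, some of which act beside the BBSome in its assembly, its transport or the base of the cilium, were all detected (15 of 15). Their median was 2.05 RPKM against 3.40 RPKM for the BBSome genes and ARL6. They ranged from WDPCP, a planar cell polarity effector, at 0.340 ± 0.0434 RPKM to TRIM32, a ubiquitin ligase, at 16.4 ± 1.46 RPKM (SD, n = 3). Of the 15, 9 passed the chi-square test of spread, against 68.6% of all tested genes. This list shares IFT27, LZTFL1, MKKS, BBS10 and BBS12 with lists described above. The difference between the medians was not tested.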
